A study of Mus musculus with 8 samples.

Results

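The sinusoidal endothelial nuclei described here are 4362 nuclei from 7 mouse livers, chosen from 59446 barcodes with at least 300 detected genes. They were picked by measured counts of unique molecular identifiers (UMIs, 1 per captured RNA molecule). A barcode needed at least 3 UMIs over the 5 markers Stab2, Ptprb, Flt1, Adgrl4 and Plekhg1, of which at least 1 from Stab2. It also had 0 UMIs of Vwf and at most 1 UMI over Ptprc, Reln, Pkhd1 and Clec4f, genes of leukocytes, stellate cells, bile duct cells and Kupffer cells. The levels of these 10 genes are therefore given as a description, with no test, and so is every comparison of the chosen nuclei with other nuclei. The whole series holds 80575 barcodes from 8 mice. The library with exactly 20000 barcodes, RD tumour 1, was left out by the selection rule.

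All mice were male DIAMOND mice, a 129A1/SvIm and C57BL/6J cross, and all were fed a Western diet, that is high-fat food with fructose and glucose in the drinking water. WD tumour mice (n = 3) stayed on it for 48 weeks and had hepatocellular carcinoma. RD no tumour mice (n = 3) and RD tumour mice (n = 2, of which 1 is used) were returned to standard chow after 36 weeks, and only the latter had carcinoma. The sample labels give 48 weeks as the age at the end, whereas the design text counts 48 weeks of diet from an age of 2 months, so the age is not used here. The labels do not say whether the frozen piece of liver held tumour tissue. Diet and tumour differ together between WD tumour and RD no tumour and cannot be told apart. Each mouse gave 1 library of nuclear RNA, and the mouse is the replicate.

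Liver sinusoidal endothelial cells line the capillaries of the liver lobule. They are perforated by open pores, lack an ordinary basement membrane and clear macromolecules from the blood through scavenger receptors such as the stabilins and the mannose receptor. They also instruct their neighbours. Those near the central vein secrete Wnt and R-spondin proteins that pattern hepatocytes, and Bmp2 and Bmp6 made by these cells drive hepatocyte hepcidin, the hormone of iron balance. In chronic liver injury they are known to lose pores and take on features of common capillaries, a change called capillarization.

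Between 443 (WD tumour 2) and 1094 (RD no tumour 3) nuclei per mouse were chosen. Their median depth was 1354 to 1909 UMIs in RD no tumour, 1840 to 2342 in WD tumour and 1395 in RD tumour 2. The other nuclei used for reference, called marker-free below, had 0 UMIs of all 10 rule genes (21706 nuclei). Their median depth was 2011 to 4214 UMIs in RD no tumour but 872 to 976 in WD tumour, so the depth of the reference differed between groups. Whole-library profiles placed RD no tumour 1 with WD tumour 2 (correlation 0.975, taken across genes, which are not replicates), apart from the other 5 libraries used. Mitochondrial UMIs made up a median of 5.89% and 6.03% in the chosen nuclei of WD tumour 1 and 3, against 1.38% to 4.38% in the other 5 mice. Of the chosen nuclei, 1 barcode sequence occurred in 2 libraries (WD tumour 1 and RD no tumour 2), and over all barcodes 421 were shared, summed over pairs of libraries.

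The label was checked against 20 sinusoid genes that the rule did not use. All 20 were at least 4-fold higher in the chosen nuclei than in marker-free nuclei by the median over 7 mice, with a median log2 ratio of 4.04 (counts per 1000000 UMIs of the summed nuclei, CPM, plus 1). Mrc1, the mannose receptor, was at 636 CPM in RD tumour 2, at 740, 1097 and 668 in RD no tumour 1, 2 and 3, and at 935, 507 and 713 in WD tumour 1, 2 and 3. In marker-free nuclei it lay between 20.1 and 65.9 CPM. Stab1, the second stabilin, was at 238 CPM in RD tumour 2, at 387, 502 and 307 in RD no tumour, and at 449, 258 and 488 in WD tumour, against 4.74 to 23.8 CPM in marker-free nuclei. The groups overlapped for both receptors. The 10 markers of other blood vessels besides Vwf summed to 164 to 260 CPM in the chosen nuclei, 14.7 to 43.6 CPM in marker-free nuclei and 1576 CPM in the Vwf-positive nuclei. Of the 11 markers with Vwf, 4 (Sox17, Ackr1, Mecom and Emcn) were at least 4-fold above marker-free nuclei. None of the 11 was higher than in the Vwf-positive nuclei. Vwf is 0 by the rule, Cytl1 had no UMI, Gja5 reached 2.41 CPM at most, and Mecom lay between 33.1 and 83.5 CPM, against 1010.3 CPM in the 283 pooled Vwf-positive endothelial nuclei. The 6 lymphatic markers outside the rule summed to 322 to 667 CPM in the chosen nuclei and 277 to 563 CPM in marker-free nuclei. In the Vwf-positive nuclei their sum was 263 CPM. Of the 6, 2 were at least 4-fold above marker-free nuclei. Pdpn and Mmrn1 stayed under 1 CPM, while Flt4, a VEGF-C receptor shared by lymphatic and sinusoidal endothelium, lay between 126 and 289 CPM. Against the Vwf-positive nuclei, which had 3 or more UMIs of the markers other than Stab2 and 0 of Stab2, the sinusoid genes separated less. Their pooled sum was 5172 CPM, inside the range of the chosen nuclei (4124 to 9077 CPM), 14 of the 20 were higher in the chosen nuclei, and 4 were at least 4-fold higher, Clec4g, Fcgr2b, Cd209b and Dnase1l3. The 20 genes together thus mark endothelium, and the sinusoidal label rests on fewer of them.

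**Figure D1:**
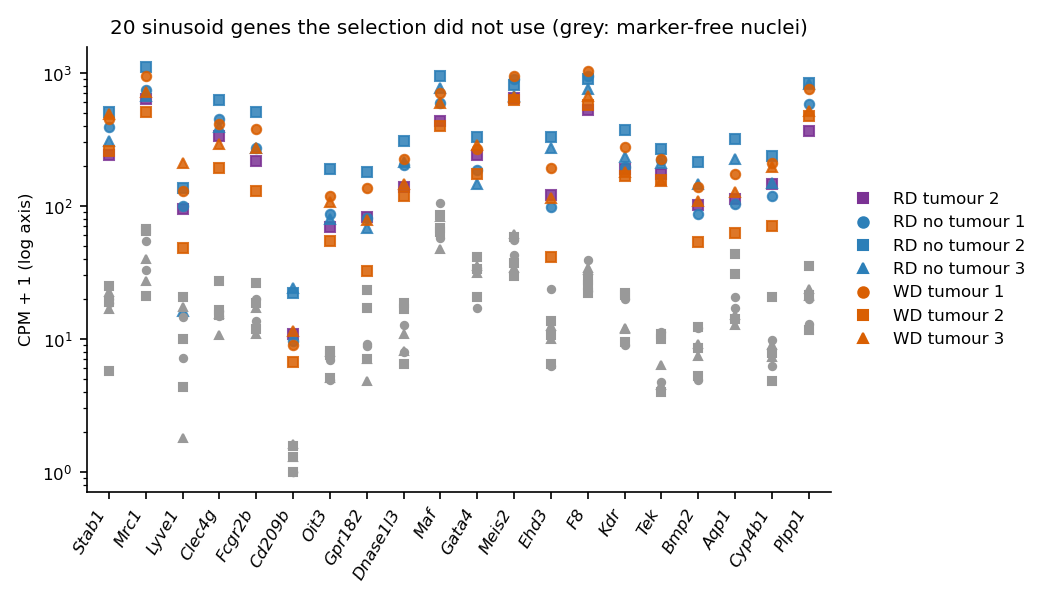
Levels of 20 sinusoid genes that the selection did not use, as CPM plus 1 on a log axis, in the sinusoidal endothelial nuclei of 7 mice (coloured) and in the marker-free nuclei of the same mice (grey). Coloured points lie above the grey points of each gene except for Lyve1, where RD no tumour 3 (15.1 CPM) falls among them.

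RNA of hepatocytes was present in these nuclei too. The 12 hepatocyte markers summed to 24960 to 45034 CPM in the chosen nuclei and 33917 to 49785 CPM in marker-free nuclei, and none of the 12 was 4-fold higher in the chosen nuclei. Of 4280 genes with a mean of at least 50 CPM, 351 were at least 4-fold and 113 at least 16-fold higher in the chosen nuclei, while 3635 lay within 2-fold of marker-free nuclei. A gene of the last kind cannot be assigned to the endothelial cell from these counts. At the edge of the rule, barcodes with exactly 3 marker UMIs (13 to 70 per mouse) held 8 other sinusoid genes at a summed 180 to 2127 CPM, and barcodes just outside with 2 UMIs (34 to 167 per mouse) at 111 to 493 CPM.

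The 20 leading genes are those with the largest ratios to marker-free nuclei. The ratios mark endothelium at large as well: 7 of the 20, Ldb2, Stox2, Cyyr1, Fgd5, Prkch, Shank3 and Gm14211, were no higher than in the Vwf-positive nuclei, and 2 (Gm16271 and Adam23) were at least 4-fold higher. The largest median log2 ratio to marker-free nuclei outside the rule was 6.36, for Gm16271, at 146 CPM in RD tumour 2, at 609, 447 and 331 in RD no tumour, and at 240, 658 and 164 in WD tumour. Gm16271 is annotated as antisense to Stab2 and overlaps it (chr10:86972216-87028015 on the plus strand, against Stab2 at chr10:86841198-87008025 on the minus strand, GRCm38). Since the rule selects on Stab2, and the strand setting of the counting is not given in the sources used here, reads of these genes may not be separable and the value is uncertain. Galnt18, a sugar transferase (6.20), Ldb2, a transcriptional cofactor (5.96), St6galnac3, a sialyltransferase (5.91), and Sema6a, a guidance protein of the semaphorin family (5.84), followed with several others. Adam23, a membrane protein of the ADAM family (5.67), Fgd5, an endothelial exchange factor for Cdc42 (5.58), Clec1a, a C-type lectin (5.39), and Bmp6 (5.38) were also among the 20 leading genes. Bmp6 was at 505 CPM in RD tumour 2, at 162, 594 and 549 in RD no tumour, and at 386, 114 and 333 in WD tumour. RD no tumour 1 and WD tumour 2 were the low libraries, and the groups overlapped.

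Promoter sequence was searched because ETS and GATA factors are known regulators of endothelial genes. The 250 bases before the start site were taken from RefSeq (GRCm38.p6) for the 16 of 25 rule and sinusoid genes that matched, and searched on both strands. The ETS letters AGGAAGT (reverse ACTTCCT) occurred in 2 of the 16, Flt1 and Mrc1, against 8.80% of 27025 genes. The GATA letters AGATAAG occurred in 0 of the 16, against 3.17%. These shares do not set the sinusoid genes apart, and no match says only that the letters are not in this window. The 2 windows with a match are shown 5′ to 3′ on the gene's strand, with the match in capitals, for Flt1, a receptor of VEGF (chr5:147726012-147726261, minus strand), and for Mrc1 (chr2:14229164-14229413, plus strand).
Flt1: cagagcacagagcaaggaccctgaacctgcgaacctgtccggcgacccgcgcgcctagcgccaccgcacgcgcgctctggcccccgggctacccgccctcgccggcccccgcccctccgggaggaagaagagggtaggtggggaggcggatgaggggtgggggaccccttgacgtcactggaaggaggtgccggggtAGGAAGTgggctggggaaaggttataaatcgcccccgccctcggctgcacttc
Mrc1: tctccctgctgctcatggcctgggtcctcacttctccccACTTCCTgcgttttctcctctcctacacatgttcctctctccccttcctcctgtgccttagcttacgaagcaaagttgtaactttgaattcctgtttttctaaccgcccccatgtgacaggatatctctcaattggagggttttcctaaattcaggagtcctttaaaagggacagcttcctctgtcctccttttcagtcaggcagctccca

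The chosen nuclei made up 5.71% of barcodes in RD tumour 2, 6.53%, 10.1% and 10.6% in RD no tumour 1, 2 and 3, and 7.12%, 6.27% and 5.53% in WD tumour 1, 2 and 3. The mean was 9.07 ± 2.21% in RD no tumour and 6.31 ± 0.795% in WD tumour (SD, n = 3 each), and the groups overlapped through RD no tumour 1. The difference of the mean log2 share was -0.50, with p = 0.2 in a two-sided exact permutation test, whose smallest possible p is 0.1 with 3 mice against 3. Thinning to 1000 UMIs dropped all shallower barcodes. It kept 8376, 5631 and 7533 of the 10275, 6048 and 10351 barcodes in RD no tumour 1, 2 and 3. In WD tumour 1, 2 and 3 it kept 4241, 4831 and 5657 of 6457, 7068 and 8871. Among the thinned barcodes the difference was -0.17 (exact permutation p = 0.5). The shares were 6.97%, 9.48% and 9.11% in RD no tumour and 8.70%, 7.95% and 6.06% in WD tumour. The change from -0.50 thus mixes equal depth with the loss of shallow barcodes. Later uses of thinning leave out shallower nuclei alike. A share in nuclei does not tell fewer endothelial cells from fewer endothelial nuclei captured, and in the sums of RNA below a lower level does not tell fewer expressing nuclei from less RNA per nucleus.

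**Figure D2:**
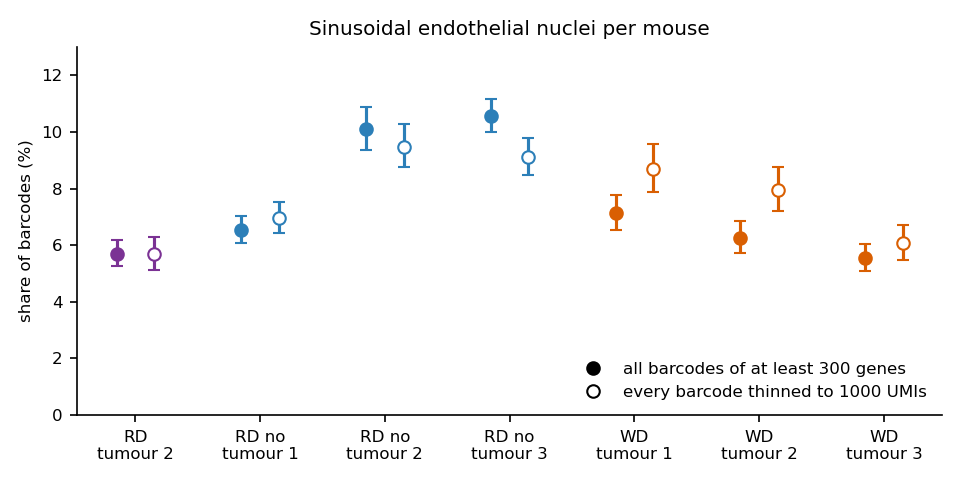
Share of barcodes chosen as sinusoidal endothelial nuclei in each mouse, in percent, with Wilson 95% intervals that cover counting error only (filled: all barcodes of at least 300 genes, open: barcodes of at least 1000 UMIs, thinned to 1000, with shallower ones dropped). RD no tumour 2 and 3 are the highest without thinning, and the gap to WD tumour narrows with it.

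WD tumour was compared with RD no tumour gene by gene on counts summed per mouse (edgeR quasi-likelihood test, Benjamini-Hochberg adjustment). Of 13147 genes tested, 0 were higher (0.00%) and 0 lower (0.00%) in WD tumour at adjusted p under 0.05, and the lowest adjusted p was 0.925. At an unadjusted p under 0.05, 256 genes were higher (1.95%) and 329 lower (2.50%). For 917 genes (6.97%) all 3 WD tumour mice lay above all 3 RD no tumour mice, and for 506 (3.85%) all lay below. The median log2 fold change over all genes was -0.02. DESeq2 called 4 genes higher and 10 lower on the same counts, among them Lpl (DESeq2 adjusted p = 0.0102) and Nrg1 (0.0137) as higher and Serpina3k (4.50e-05), Nnmt (5.31e-05) and Fam167b (0.00394) as lower. The genes named next are therefore given as values, not as changes: the 15 of each direction with the lowest p whose groups did not overlap and whose mean was at least 20 CPM.

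The 15 genes with higher values in WD tumour included Lpl, Srebf1 and Nrg1. Lpl, lipoprotein lipase, was at 13.5 CPM in RD tumour 2, at 4.35, 2.70 and 11.4 in RD no tumour, and at 23.9, 56.8 and 56.2 in WD tumour (log2 fold change 2.71, SE 0.54, edgeR adjusted p = 0.992). All WD tumour mice lay above the other 4. Srebf1, the main transcription factor of fatty acid synthesis, was at 14.1 CPM in RD tumour 2, at 14.9, 12.8 and 12.9 in RD no tumour, and at 40.7, 29.7 and 40.2 in WD tumour (log2 fold change 1.38, SE 0.23, edgeR adjusted p = 0.925). Both genes moved likewise in marker-free nuclei, where Lpl differed by 3.35 and Srebf1 by 1.99 on the log2 scale, and both were within 2-fold of marker-free nuclei in level. Nrg1, a ligand of ErbB receptors made by endothelium, was at 17.8 CPM in RD tumour 2, at 14.9, 8.78 and 4.78 in RD no tumour, and at 34.5, 47.3 and 45.8 in WD tumour. Its log2 fold change was 2.15 (SE 0.39) in the endothelial nuclei and 0.95 in marker-free nuclei, where the groups overlapped. Its level too was within 2-fold of marker-free nuclei.

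Only 3 of these 15 genes were at least 4-fold above marker-free nuclei in level: Akap12, D5Ertd615e and Limch1. Akap12, a scaffold protein that anchors protein kinases A and C, was at 8.60 CPM in RD tumour 2, at 8.70, 14.9 and 9.20 in RD no tumour, and at 23.0, 50.5 and 34.5 in WD tumour (log2 fold change 1.67, SE 0.36). The long noncoding RNA D5Ertd615e was at 19.0 CPM in RD tumour 2, at 14.3, 10.8 and 2.58 in RD no tumour, and at 39.8, 95.9 and 34.5 in WD tumour (2.64, SE 0.63). Limch1, an activator of nonmuscle myosin, was at 43.0 CPM in RD tumour 2, at 42.9, 54.0 and 42.7 in RD no tumour, and at 90.2, 82.7 and 75.5 in WD tumour (0.78, SE 0.20). For Limch1, RD tumour 2 sat within the RD no tumour range. It did so for 6 of the 15 genes, and lay above the range, on the side of WD tumour, for 8.

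Among the 15 with lower values in WD tumour, Nnmt, which methylates nicotinamide and is high in hepatocytes, was at 391 CPM in RD tumour 2, at 281, 357 and 192 in RD no tumour, and at 61.0, 83.3 and 82.7 in WD tumour (log2 fold change -1.93, SE 0.28, edgeR adjusted p = 0.925). Serpina3k, a protease inhibitor of hepatocytes, was at 700 CPM in RD tumour 2, at 1328, 1048 and 1624 in RD no tumour, and at 480, 514 and 417 in WD tumour. By the median over mice neither was above the marker-free nuclei in level, although Serpina3k was above them in RD no tumour 2 and 3. Fam167b was 4-fold above them: it was at 28.9 CPM in RD tumour 2, at 72.1, 84.4 and 66.6 in RD no tumour, and at 31.0, 20.8 and 16.9 in WD tumour (log2 fold change -1.76, SE 0.27). In marker-free nuclei Fam167b stayed between 1.01 and 5.68 CPM, its groups overlapped, and its log2 difference was 0.61, of the other sign.

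Sgk1, a kinase induced by corticosteroids, was at 43.6 CPM in RD tumour 2, at 67.1, 86.4 and 69.9 in RD no tumour, and at 40.7, 48.6 and 45.0 in WD tumour (log2 fold change -0.79, SE 0.19). Cpne2, a calcium-dependent membrane-binding protein, was at 39.3 CPM in RD tumour 2, at 60.3, 70.2 and 64.4 in RD no tumour, and at 42.5, 29.0 and 39.4 in WD tumour (-0.88, SE 0.22). The antisense RNA Gm15674, whose partner strand was not separable here, was the remaining gene of this direction 4-fold above marker-free nuclei. RD tumour 2 lay below the RD no tumour range, on the side of WD tumour, for 9 of the 15 genes, Fam167b, Sgk1 and Cpne2 among them. Of all 30 named genes, 28 had the same sign of difference in marker-free nuclei. All 30 had the same sign between WD tumour 2 and RD no tumour 1 and between the other WD tumour and RD no tumour mice. The choice of genes without overlap fixes this in advance, so it adds no support.

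**Figure D3:**
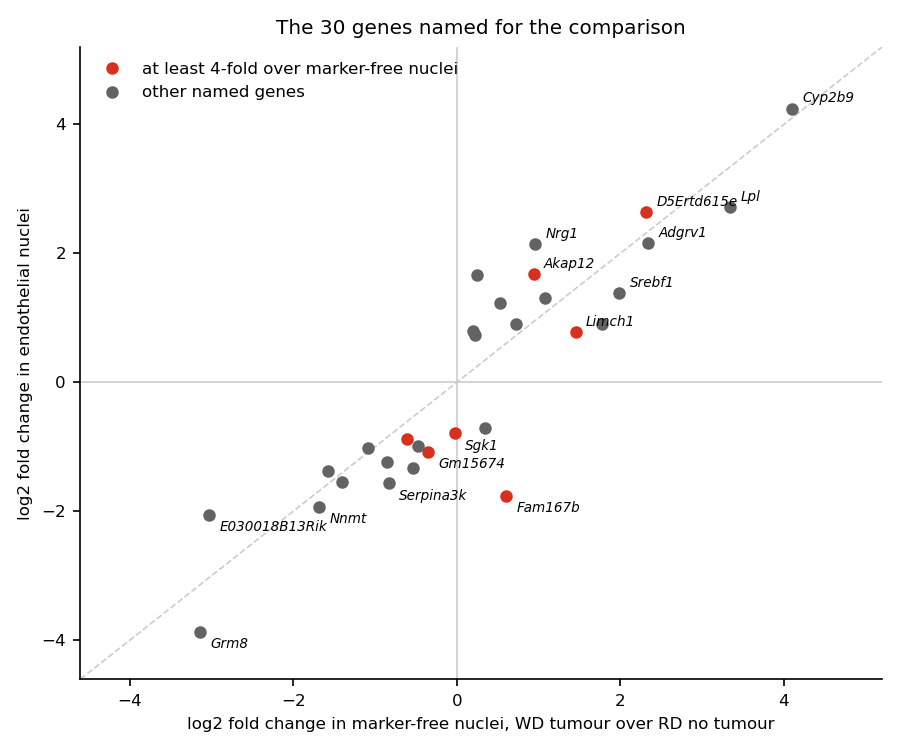
Log2 fold change of WD tumour over RD no tumour in sinusoidal endothelial nuclei (y axis) and in marker-free nuclei (x axis) for the 30 genes named for the comparison (red: at least 4-fold above marker-free nuclei in level, dashed line: equal difference). Most points lie near the line, and Fam167b lies apart from it.

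To look past RNA shared by all nuclei, the 561 genes at least 4-fold above marker-free nuclei with a mean of at least 20 CPM were counted (a cut chosen after the values were seen, so without a test). Of these, 26 were higher (4.63%, against 1.95% of all genes) and 22 lower (3.92%, against 2.50%) at unadjusted p under 0.05, and their median log2 fold change was -0.03. All genes tested were not cut at 20 CPM, so the shares compare genes of unlike level. Without overlap, WD tumour lay above for 38 (6.77%) and below for 27 (4.81%), near the 6.97% and 3.85% of all genes. Among the higher were Kcnq1, a potassium channel subunit (39.1 to 54.0 CPM in RD no tumour, 72.0 to 91.6 in WD tumour), Inhbb, a subunit of activins (13.2 to 26.7 against 27.4 to 41.8), and Hmcn1, a large matrix protein (62.9 to 171 against 195 to 394). Among the lower were Ramp2, the adrenomedullin co-receptor that maintains vessels (46.0 to 81.7 CPM in RD no tumour, 18.9 to 44.2 in WD tumour), Podxl, a glycoprotein of the luminal surface (39.1 to 57.4 against 24.1 to 38.9), and Plxnc1, a semaphorin receptor (360 to 541 against 169 to 332). None of them passed the adjustment.

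The sinusoid identity genes were read next. Of 20 tested, 0 passed the adjusted test and 18 had negative log2 fold changes, with a median of -0.43 against -0.02 over all genes, and the groups overlapped for all 20. Only Cd209b, a lectin of the sinusoidal lining, had an unadjusted p under 0.05 (5% of the 20, against 2.50% of all genes lower). Its log2 fold change was -1.22 (edgeR adjusted p = 0.992). It was at 9.83 CPM in RD tumour 2, at 8.70, 20.9 and 23.2 in RD no tumour, and at 7.96, 5.68 and 10.4 in WD tumour. Clec4g, a lectin made by these cells, was at 335 CPM in RD tumour 2, at 446, 622 and 389 in RD no tumour, and at 408, 192 and 291 in WD tumour. Summed over the 20 genes, RD no tumour 2 was the highest mouse (9077 CPM) and WD tumour 2 the lowest (4124 CPM), with the other 5 between 4847 and 7676 CPM.

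Of 19 capillary and basement membrane genes tested of 21, 0 passed the adjusted test and 0 had an unadjusted p under 0.05, and the median log2 fold change was 0.14. For 2 of the 19, Hspg2 and Lamc1, WD tumour lay above without overlap (10.5%, against 6.97% over all genes), with log2 fold changes of 0.15 and 0.30. Cd34, a surface protein of common capillaries, stayed between 3.31 and 9.47 CPM in all 7 mice. Plvap, the diaphragm protein of closed pores, was at 9.21 CPM in RD tumour 2, at 36.0, 27.0 and 15.5 in RD no tumour, and at 18.6, 8.84 and 16.9 in WD tumour. Lama4, a laminin chain of vessel basement membranes, was at 231 CPM in RD tumour 2, at 173, 244 and 116 in RD no tumour, and at 339, 186 and 283 in WD tumour. As shares of nuclei thinned to 1000 UMIs, Lama4 was detected in 19.2%, 23.1% and 14.4% of RD no tumour and 28.7%, 23.4% and 25.2% of WD tumour nuclei, with 1.37% at most in marker-free nuclei thinned alike. The exact permutation test gave p = 0.1, the smallest it can give, and 0.84 after adjustment over 42 genes. Shares of Emcn, an endothelial sialomucin, did not overlap either, at 8.47%, 9.95% and 7.43% in RD no tumour and 11.2%, 12.5% and 11.5% in WD tumour, nor did those of Esm1, at 6.03%, 4.31% and 0.00% against 6.41%, 10.1% and 11.1%. Lama4, Emcn and Esm1 are given because their shares did not overlap, and such shares were not computed over all genes.

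VEGF, Tie and Notch genes guide vessel growth and fate. Of 16 VEGF and Tie genes tested, 0 passed the adjusted test, and the median log2 fold change was 0.22. Vegfc, the lymphatic growth factor, was at 64.5 CPM in RD tumour 2, at 31.1, 20.9 and 9.20 in RD no tumour, and at 22.1, 80.8 and 57.8 in WD tumour (log2 fold change 1.37, SE 0.54, edgeR adjusted p = 0.992). Its groups overlapped, and its difference in marker-free nuclei was -0.20. Of 11 Notch genes tested, 0 passed and 10 had positive log2 fold changes, with a median of 0.30. For 3 of the 11, Jag1, Rbpj and Maml1, WD tumour lay above without overlap (27.3%, against 6.97% over all genes). Maml1, a co-activator of Notch, was at 45.4 CPM in RD tumour 2, at 28.0, 30.4 and 32.8 in RD no tumour, and at 45.1, 55.5 and 47.4 in WD tumour (0.64, SE 0.18, edgeR adjusted p = 0.992). All 3 were within 2-fold of marker-free nuclei in level. The ligand Dll4 overlapped, at 41.6, 54.7 and 15.1 CPM in RD no tumour and 29.2, 29.0 and 52.2 in WD tumour.

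Of 18 BMP and TGF beta genes tested, 0 passed the adjusted test, and the median log2 fold change was -0.09. For 3 of the 18 (16.7%), Id1, Id3 and Bmper, values in WD tumour were lower at an unadjusted p under 0.05 and without overlap, against 2.50% and 3.85% of all genes. Id1 and Id3 are transcriptional targets of BMP signalling. Id1 was at 52.8 CPM in RD tumour 2, at 27.3, 20.9 and 17.7 in RD no tumour, and at 12.4, 6.94 and 16.1 in WD tumour (log2 fold change -0.96, SE 0.35). Id3 was at 147 CPM in RD tumour 2, at 90.1, 128 and 85.4 in RD no tumour, and at 61.0, 24.0 and 65.1 in WD tumour (-1.08, SE 0.39). For both, the groups did not overlap, and RD tumour 2 was the highest mouse of all. Bmper, an extracellular modulator of BMPs, was at 73.7 CPM in RD tumour 2, at 258, 45.9 and 106 in RD no tumour, and at 19.5, 37.9 and 17.7 in WD tumour (-2.48, SE 0.62, edgeR adjusted p = 0.992, DESeq2 adjusted p = 0.0467). In marker-free nuclei the log2 difference was -2.99 for Bmper, -0.12 for Id1 and -0.28 for Id3, and all 3 were within 2-fold of marker-free nuclei in level. The ligands Bmp2 and Bmp6 and the receptors Acvrl1, Eng and Bmpr2 overlapped between groups.

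The lists of flow, uptake, adhesion and lipid genes held 4 genes with an unadjusted p under 0.05 among 69 tested (5.80%, with Lrp1 counted in 2 lists), near the 4.45% of all genes, so the following are values only. Of 17 flow and junction genes, Gja4, a connexin of endothelium, was at 6.14 CPM in RD tumour 2, at 19.9, 23.0 and 18.0 in RD no tumour, and at 12.4, 4.42 and 11.2 in WD tumour (log2 fold change -1.19, edgeR adjusted p = 0.992). The list's median was -0.19, and Klf2 and Nos3, which respond to flow, overlapped between groups. Of 15 uptake and lysosome genes, the protease gene Ctsl was at 663 CPM in RD tumour 2, at 1170, 1192 and 847 in RD no tumour, and at 538, 338 and 543 in WD tumour (-1.23, adjusted p = 0.992 with edgeR), and the median was 0.02. Marker-free nuclei held Ctsl at 356 to 1134 CPM. Of 17 adhesion and cytokine genes, 14 had negative log2 fold changes (median -0.46), among them Csf1, a macrophage growth factor, with overlapping groups (edgeR adjusted p = 0.992). Of 20 lipid-handling genes, Lpl alone had an unadjusted p under 0.05, and the median was 0.20.

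For several interferon-responsive genes the highest mice came from different groups. RD no tumour 1 and WD tumour 2, the pair that whole-library profiles also placed together, were the highest mice for Cxcl9, Cxcl10, Cd274 and Ly6a. Cxcl9, a chemokine for T cells, was at 15.4 CPM in RD tumour 2, at 151, 31.1 and 2.21 in RD no tumour, and at 31.0, 54.3 and 17.7 in WD tumour. Cd274, which encodes the checkpoint ligand PD-L1, was at 62.1 and 22.1 CPM in these 2 mice and between 4.02 and 8.10 in the other 5. These genes were chosen after their values were seen.

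The same 2 mice also differed in some genes of metabolism, growth and identity. Fabp4, a fatty acid carrier of endothelium, was at 253 and 213 CPM in them and between 41.2 and 104 in the other 5. The 16 cell cycle genes summed to 142 CPM in RD no tumour 1 and 173 in WD tumour 2, and to between 18.4 and 37.9 in the others. Bmp6, Bmp2 and Ehd3, a membrane-trafficking gene of these cells, were lowest in these 2 mice. These genes were picked after their values were seen. The 20 sinusoid identity genes summed to 6336 CPM in RD no tumour 1, inside the range of the other 5 mice, and to 4124 CPM in WD tumour 2, the lowest. Neutrophil markers stood beside the pattern of the 2 mice: their sum was 434 and 116 CPM in the chosen nuclei of these mice, against 22.4 to 71.6 in the others, and 497 and 224 CPM in their marker-free nuclei. Kupffer cell markers summed to 478 and 593 CPM in them and to between 168 and 311 in the others, with 444 and 1190 CPM in their marker-free nuclei. Macrophage markers summed to 401 and 213 CPM against 103 to 181. Haemoglobin and other erythroid genes summed to 6638 and 16779 CPM in them and to between 611 and 4427 in the others. In marker-free nuclei the cell cycle sum was likewise highest in these mice, at 146 and 287 CPM. The part of these other cells in the pattern was not tested.

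**Figure D4:**
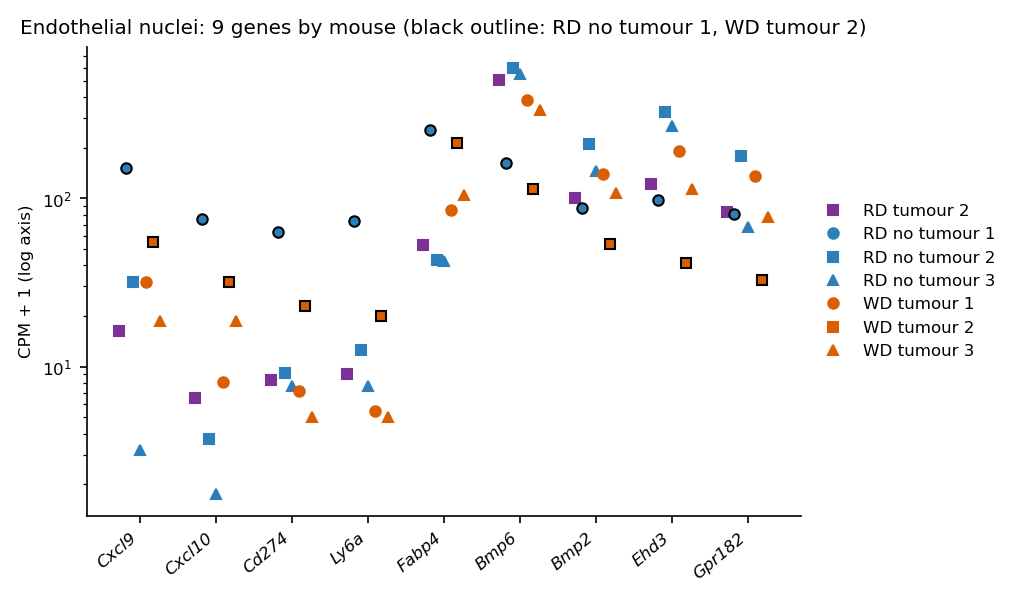
Levels of 9 genes in the sinusoidal endothelial nuclei of 7 mice, as CPM plus 1 on a log axis, each point 1 mouse, with RD no tumour 1 and WD tumour 2 outlined in black. These 2 mice are the highest for the first 5 genes and the lowest for Bmp6, Bmp2 and Ehd3.

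Position along the sinusoid was described with genes reported high near the central vein or near the portal tract. A nucleus was called central-marked if it had a UMI of Wnt2, Rspo3, Cdh13 or Kit and none of Efnb2, Dll4, Ltbp4 or Ntn4, and portal-marked for the reverse. These 8 genes were chosen after levels were seen, so the following is a description. In RD no tumour 3, 355 nuclei were central-marked and 183 portal-marked, a ratio of 1.94, whereas the ratio lay between 0.222 and 0.472 in the other 6 mice. With nuclei thinned to 1000 UMIs the ratio was 2.06 in this mouse and 0.212 to 0.489 in the others, so the difference was as large at equal depth. In the same mouse, nuclei with UMIs of both sets made up 13.3%, beside 13.7% for the product of the 2 shares. Among the other mice it lay on either side of the product, as at 14.9% beside 17.2% in RD no tumour 2 and 17.8% beside 14.3% in WD tumour 2. These counts do not show that the sets mark separate nuclei, which was not tested.

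**Figure D5:**
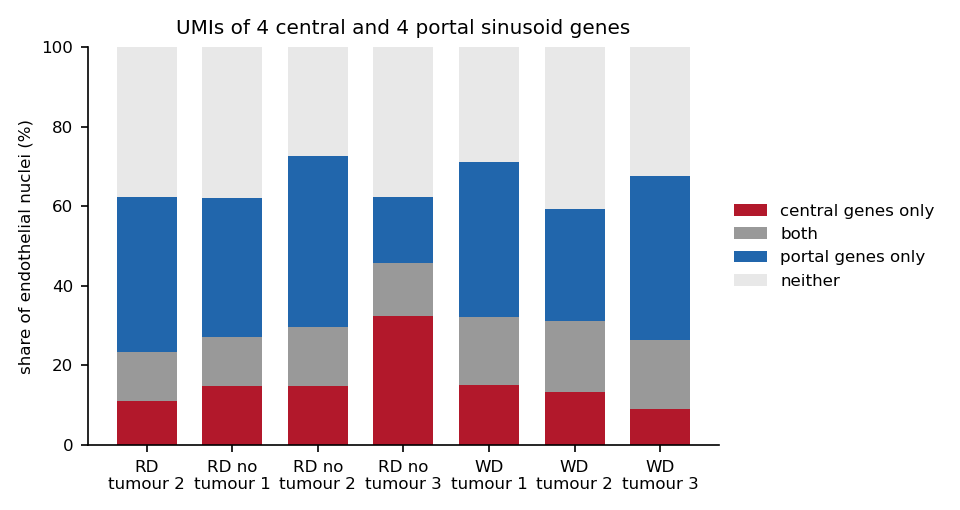
Share of sinusoidal endothelial nuclei of each mouse, in percent, with UMIs of central genes only (Wnt2, Rspo3, Cdh13, Kit), of portal genes only (Efnb2, Dll4, Ltbp4, Ntn4), of both or of neither. Central-marked nuclei outnumber portal-marked nuclei in RD no tumour 3 alone.

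The ratio of RD no tumour 3 depended on Cdh13: without that gene it was 0.897 (0.156 to 0.347 in the other 6 mice), and without Cdh13 and Wnt2 0.628 (0.115 to 0.316). These settings were chosen after seeing the data. Rspo3 did not go with the pattern, with shares of 2.44% in RD no tumour 3 and 1.39% to 4.62% in the others after thinning, Kit was at 12.3% against 5.35% to 10.3%, and Ltbp4 at 2.19% lay above RD no tumour 1 and WD tumour 2. Cdh13, a cadherin, was at 236 CPM in it, at 53.4 and 102 in the other RD no tumour mice, at 175, 65.6 and 63.5 in WD tumour and at 75.5 in RD tumour 2. Ntn4, a netrin of basement membranes, was at 117 CPM in it and between 224 and 422 in the other 6. Efnb2, an ephrin of arterial-side endothelium, was at 29.4 CPM in it, the lowest mouse, and between 36.6 and 119 in the others. Lyve1, a hyaluronan receptor, was at 15.1 CPM in it and between 46.7 and 207 in the others, and Esm1, an endothelial proteoglycan, at 0.736 CPM from 2 UMIs against 48.6 to 126. The Wnt ligand Wnt2 was detected in 9.01% of its nuclei thinned to 1000 UMIs, in 2.28% and 4.64% in RD no tumour 1 and 2, in 3.80%, 1.69% and 2.54% in WD tumour and in 2.19% in RD tumour 2. Marker-free nuclei had a UMI of Wnt2 in 0.179% at most. Between WD tumour and RD no tumour, of which this mouse is 1 of 3, the median log2 fold change was -0.31 over 10 central genes tested and 0.39 over 10 portal genes tested, with 0 genes passing the adjusted edgeR test.

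Genes that did not define these sets were also compared between central-marked and portal-marked nuclei of the same mouse, as a description with no test. Of 4276 genes with a mean of at least 50 CPM, 51 (1.19%) were higher in central-marked nuclei in 7 of 7 mice and 58 (1.36%) in portal-marked nuclei in 7 of 7. Higher on the central side in all 7 were Pcdh9, a protocadherin (median log2 difference 2.03), Car8, a carbonic anhydrase-like protein (1.03), and Plpp1, a lipid phosphatase (0.60). Higher on the portal side in all 7 were the scavenger receptor Msr1 (-0.99), Hmcn1 (-0.88) and Lama4 (-0.82). Genes of the lists were read whatever their level. Of these, Vegfc (-0.82, with a mean under 50 CPM) and Smad6, an inhibitor of BMP signalling (-0.38), were also higher there in all 7. Msr1 was at 191, 87.2 and 103 CPM in central-marked and 370, 205 and 170 in portal-marked nuclei of RD no tumour 1, 2 and 3. In WD tumour it was at 135, 152 and 101 CPM against 278, 309 and 231. The identity genes Stab1 and Clec4g had no common direction over the 7 mice.

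The difference between WD tumour and RD no tumour was finally set against that in marker-free nuclei of the same mice (edgeR interaction test with the mouse as a block). Of 15383 genes, 0 had a more positive difference in the endothelial nuclei (0.00%) and 2 a more negative one (0.0130%) at adjusted p under 0.05, namely Negr1 and Shank3. At an unadjusted p under 0.05 the counts were 283 (1.84%) and 1198 (7.79%). Shank3, a scaffold protein and 1 of the leading genes, was at 228, 210 and 163 CPM in the endothelial nuclei of RD no tumour and 192, 190 and 201 in WD tumour, which overlap. In marker-free nuclei it was at 1.33, 0.691 and 0.539 CPM in RD no tumour and 4.63, 3.44 and 4.63 in WD tumour. The interaction of Shank3 was -2.44 (edgeR adjusted p = 0.0459), with groups that overlapped in the endothelial nuclei and not in the reference. With only marker-free nuclei of at least 1000 UMIs, its edgeR adjusted p was 0.843. Negr1, a neuronal adhesion gene, was at 85.1, 13.5 and 34.6 CPM in the endothelial nuclei of RD no tumour and at 0.884, 85.2 and 0.00 in WD tumour (interaction -2.63, edgeR adjusted p = 0.0206). Its marker-free levels were 65.6, 8.88 and 23.1 CPM and 3.37, 323 and 1.74 CPM. WD tumour 2 thus stood apart from the other WD tumour mice in both kinds of nuclei. In the endothelial nuclei it was level with RD no tumour 1. No gene named for the comparison of groups passed this test, and the lowest interaction adjusted p among those 30 was 0.153, for Cep83 (edgeR).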

How the data were processed

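Nuclear RNA of 8 livers was captured with Chromium 3′ chemistry, version 3.1, per the labels. The authors deposited raw UMI counts per gene and barcode for each mouse. The submitters' processing notes name Cell Ranger 7.0.0 and build mm10. The counting of intronic reads and of strand is not given in the sources used here. Each file lists 32285 genes, and gene positions come from GENCODE M21 (GRCm38).

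The selection rule was applied to 7 libraries (scipy 1.17.1). The members and gene lists were chosen with earlier results of these data known. Doublets were kept. Scrublet (scanpy 1.11.5, expected 0.8% per 1000 barcodes) marked 4.75% to 16.5% of the chosen nuclei per mouse, and 1 alternative leaves them out. Total counts ranged from 17948627 to 32537971 UMIs per library used, and 1130645 to 2717394 UMIs lay in the chosen nuclei.

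The main test was the quasi-likelihood test of edgeR 4.0.16 on counts summed per mouse, with TMM factors, filterByExpr and a coefficient for each of 3 groups (RD tumour 2 alone in its own). Adjusted p-values (Benjamini-Hochberg) under 0.05 were called. The script was tested on simulated data. The sources used here do not say whether mice were housed or processed by group. The p-values rest on the spread between mice within groups, which would not show a difference in handling between groups. CPM values use the total UMIs of the summed nuclei. Shares were tested with exact permutation tests. Same-numbered mice correlated at -0.37, -0.48 and 0.083 in their deviations from the group means, so the replicate numbers were not taken to pair them. Genes were named by rule: for the comparison, those passing the test or else the 15 per direction of lowest p without overlap and with a mean of at least 20 CPM; the 20 leading genes by ratio to marker-free nuclei with a mean of at least 50 CPM; the 10 of lowest interaction p; and any gene of a list. Alternatives were DESeq2 1.42.0, its size factors in edgeR, filters, blocks, stricter selection rules, thinning and leaving out each mouse.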

Additional observations from a re-analysis of the deposited data

Results flagged for a closer look

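The difference between WD tumour and RD no tumour was unlike in the endothelial and the marker-free nuclei for 2 genes by the edgeR interaction test. For Negr1 the interaction was -2.63 on the log2 scale (adjusted p = 0.0206), and its adjusted p was 0.436 with 0 UMIs of the excluded genes, 0.156 without called doublets and 0.139 with at most 5% mitochondrial UMIs. For Shank3 it was -2.44 (edgeR adjusted p = 0.0459), with adjusted p of 0.0793, 0.0569 and 0.884 under the same 3 settings. Without 1 mouse, adjusted p ranged from 0.0178 to 0.569 for Negr1 (highest without WD tumour 2, and over the threshold too without WD tumour 1, WD tumour 3 or RD no tumour 3). For Shank3 it ranged from 0.0246 to 0.338 (highest without WD tumour 3, and over the threshold too without WD tumour 1, RD no tumour 2 or RD no tumour 3). All values are from edgeR.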

How the results depend on the processing

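Of the genes in endothelial nuclei, 0 were higher and 0 lower in WD tumour by edgeR with its size factors exchanged, without a low-count filter, on the 2 groups alone, under each stricter selection and after thinning. DESeq2 gave 4 higher and 10 lower. The library-profile block gave 1 lower, Mup7, as did leaving out RD no tumour 1, so the counts without 1 mouse ranged from 0 to 0 higher and from 0 to 1 lower. With the replicate block (paired by number) they were 0 higher and 0 lower. For the interaction, against 0 more positive and 2 more negative, no low-count filter gave 27 and 408, and the stricter marker rule 4 and 8. Stricter exclusion, doublet removal and the mitochondrial limit each gave 0 and 0, and marker-free nuclei of at least 1000 UMIs, chosen after seeing the data, gave 0 and 1 (Negr1). Leaving out 1 mouse gave 0 to 3 more positive and 0 to 25 more negative genes, the highest without RD no tumour 1, with 1 more positive and 0 more negative without RD no tumour 3, 0 and 1 without RD no tumour 2, 1 and 2 without WD tumour 2, and 0 and 0 without WD tumour 1 or WD tumour 3. The cause was not tested. The log2 difference of the share of barcodes was negative under all 7 settings and ranged from -0.72 to -0.37 without 1 mouse. Groups did not overlap for 4 of 42 thinned shares with WD tumour above and 1 below. Thinned shares over all genes were not computed, and by summed level 6.97% of all genes lay above and 3.85% below. Thinning to 500 UMIs gave 2 and 2, the stricter marker rule 7 above, no thinning 0 below, and leaving out 1 mouse, which leaves fewer values to overlap, 6 to 9 above and 1 to 3 below. Under alternatives, 710 values of named genes and of the central to portal ratio of RD no tumour 3 were followed. Of these, 15 lost the call at the adjusted threshold, 11 gained it, and 2, both of the ratio, moved. Only 1 changed sign: Adgrg6, to -0.24 with members chosen after thinning. The genes were named for a low p, many also for lack of overlap, so a kept sign adds no support. Libraries of 443 to 1094 nuclei limit genes of few UMIs, and 3 mice against 3 limit every test.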

Other observations

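Antigen presentation genes of class II varied between mice in the endothelial nuclei. Cd74, the class II invariant chain, was at 44.8 CPM in RD tumour 2, at 52.2, 39.2 and 10.7 in RD no tumour, and at 98.2, 43.6 and 69.9 in WD tumour, and the groups overlapped. Marker-free nuclei held it at 8.63 to 116 CPM. Of the 17 class II and interferon genes tested, 0 passed the adjusted edgeR test and 0 had an unadjusted p under 0.05.

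Genes of other cells were also read in these nuclei. Of 8 stellate genes tested, 5 had positive log2 fold changes, and groups did not overlap for 3 with WD tumour above (37.5%) and 1 below (12.5%), against 6.97% and 3.85% of all genes. Of 7 macrophage genes tested, 3 were positive, the median was -0.26, and WD tumour lay above without overlap for 1 (14.3%). The next 2 genes were chosen after their values were seen. Col3a1, a collagen of fibroblasts, was at 6.76 CPM in RD tumour 2, at 3.73, 1.35 and 2.21 in RD no tumour, and at 7.08, 19.6 and 12.1 in WD tumour. Mmp12, a macrophage elastase, was at 2.46 CPM in RD tumour 2, at 0.00, 0.675 and 0.736 in RD no tumour, and between 1.26 and 18.5 in WD tumour. For neither gene did the groups overlap, but the closest values of Mmp12, 0.736 CPM in RD no tumour and 1.26 in WD tumour, rest on few UMIs. Marker-free nuclei held Col3a1 at 1.35 to 33.8 CPM and Mmp12 at 0.359 to 16.8 CPM. None of the 10 stellate, 9 Kupffer or 8 macrophage markers outside the rule was 4-fold above marker-free nuclei in level.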
